A study of Rattus norvegicus with 36 samples.

Results

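Trim AG, an isomiR of miR-125b that lacks the last bases A and G at the 3′ end, was compared with full-length miR-125b in H9C2 cells kept in normoxia. The members of this comparison are 6 of the 36 RNA-seq libraries of the series, chosen by their labels: 3 from cells transfected with the Trim AG mimic and 3 from cells transfected with the miR-125b mimic. H9C2 is a cardiac myoblast line from embryonic rat heart. The whole series covers mimic control, miR-125b and 4 isomiRs, namely Plus A with an added base and the shortened Trim A, AG and AGU, each in normoxia and in hypoxia. All groups received 25 nmol/L of mimic and were left for 24 h. For the next 24 h, normoxia groups had fresh culture medium and hypoxia groups had low-glucose medium without serum. The line is a model of dividing muscle precursor cells and not of beating heart muscle, and both groups carried a transfected synthetic miRNA.

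MicroRNAs guide Argonaute proteins to messenger RNAs, mostly through pairing of the seed, bases 2 to 8 of the miRNA, with a site in the 3′ untranslated region, and the bound messenger is then less stable and less translated. miR-125b, the mammalian relative of the worm miRNA lin-4, is known for acting on apoptosis, proliferation and differentiation genes, and it is abundant in the heart. IsomiRs are length variants of a miRNA. A variant trimmed at the 3′ end keeps the 5′ end and with it the seed, while the bases that sit at the other end of the guide are lost.

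The mature sequence shows which bases the named trims remove. In RefSeq (GRCr8), rno-miR-125b-5p lies in the gene *Mir125b2* at chr11:29732588-29732609, plus strand, and the same bases are found in the hairpin of *Mir125b1* at chr8:50850050-50850071, plus strand. The Trim AG and Trim AGU lines were made by taking the bases that the study names off that sequence. The sequences of the synthesised mimics are not given in the sources used here. The seed is in capitals.
miR-125b: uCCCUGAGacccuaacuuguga
Trim AG: uCCCUGAGacccuaacuugu
Trim AGU: uCCCUGAGacccuaacuug
All of them share the seed CCCUGAG, and they differ only in length, with 22, 20 and 19 bases.

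The 6 libraries held 28690101 to 30547343 counts each over 21251 listed genes. Levels are given as CPM, counts scaled to a common library size with TMM, which corrects for library composition. The muscle genes of the label were partly present. *Tnnc1*, troponin C of slow and cardiac muscle, lay at 189 to 284 CPM, and the cardiac factor *Gata4* at 12.2 to 16.5 CPM. *Myod1*, a myogenic regulator, lay at 127 to 146 CPM, whereas *Nkx2-5*, a cardiac transcription factor, lay at 0.589 to 0.954 CPM, *Myh6*, the adult cardiac myosin, at 0.212 to 0.450 CPM, and *Nppa*, the atrial peptide, had no count in the 3 miR-125b libraries. The summed level of 8 fibroblast markers was 38167 to 42148 CPM with miR-125b and 23669 to 26939 CPM with Trim AG, that of 5 smooth muscle markers 11759 to 12097 and 14889 to 15624 CPM, and that of 13 striated muscle markers 426 to 510 and 532 to 595 CPM. Nearly all of the fibroblast sum was *Col1a1*, *Col1a2* and *Col3a1*. The other fibroblast markers were not called, among them *Pdgfrb* (log2 difference -0.15), *Thy1* (0.11) and *S100a4* (0.51). Nearly all of the smooth muscle sum was *Acta2* (0.37) and *Tagln* (0.21), which were not called. Of the striated muscle markers, *Acta1* (1.77), *Actc1* (1.68), *Tnnt2* (1.29) and *Des* (0.70) were up-regulated. *Myod1* (0.05), *Myog* (0.12), *Tnnc1* (0.08) and *Gata4* (-0.20) were not called. The epithelial sum was 36.5 to 42.8 CPM over all 6 libraries, almost all of it *Krt8*. The neural sum was 38.7 to 44.5 CPM with miR-125b and 30.8 to 35.1 CPM with Trim AG, with *Rbfox3* at 0. Endothelial and blood sums were at most 1.90 and 2.95 CPM. No gene was listed under the names *Pecam1*, *Cdh5* and *Kdr* (endothelial), *Hba1* (blood), *Krt19* (epithelial) or *Snap25* (neural), so the sums leave these markers out. The part of these shifts in the results was not tested, and in bulk RNA fewer cells of a type and less RNA per cell cannot be told apart.

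The library labelled miR-125b replicate 1 stood apart. *Cav1*, which encodes the caveolar coat protein caveolin-1, was at 106 CPM in that library and at 288 and 267 CPM in miR-125b replicates 2 and 3. In the Plus A group the values were the other way round, with 272 CPM in replicate 1 and 102 CPM in each of replicates 2 and 3. A distance between libraries was taken as the root of the mean squared log2 CPM difference over 15407 genes. By it, miR-125b replicate 1 was 0.472 from the other miR-125b libraries and 0.425 from Plus A replicates 2 and 3. The other miR-125b libraries were 0.435 from each other and 0.419 from Plus A replicate 1. The labels were kept as given, and counts of a list are also stated without the library labelled miR-125b replicate 1 where that changed them. The Trim AG libraries were 0.423 from each other and 0.613 from the miR-125b libraries.

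Of 14864 genes tested, 1127 were up-regulated (7.58%) and 946 were down-regulated (6.36%) with Trim AG compared with miR-125b, at an adjusted p below 0.05 in edgeR's quasi-likelihood test and a fold of at least 1.5. Without miR-125b replicate 1 the counts were 1065 and 917. The libraries of the groups did not overlap for 51.4% of all genes tested and for 2051 of the 2073 genes called (98.9%). In each of the fits that left out 1 of the 6 libraries, 1702 of the called genes (82.1%) kept an adjusted p below 0.05. Most differences were moderate, with a median size of 0.86 on the log2 scale, and 21 of the up-regulated and 24 of the down-regulated genes passed 4-fold. Nothing in the labels says whether the 3 libraries of a group came from separate cultures, so the p-values measure the spread between these libraries.

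Most of the largest differences among genes with a name and a stable call were at low levels, but *Tmem123*, *Gaa* and *Trib3* were higher. *Lrrc15*, a leucine-rich repeat membrane protein of fibroblasts, was at 0.0707, 0.213 and 0.177 CPM with miR-125b and at 1.77, 2.35 and 1.83 CPM with Trim AG (log2 difference 3.64). *Btk*, a cytoplasmic tyrosine kinase, was at 0.742, 1.60 and 0.990 CPM against 4.82, 4.31 and 6.19 CPM (2.18). *Tmem123*, a surface protein also called porimin, was at 15.4, 16.3 and 17.0 CPM against 53.5, 70.8 and 55.5 CPM (1.87). In these genes every Trim AG library lay far above every miR-125b library.

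For *Mrpl53*, *Hprt1* and *Med22* the Trim AG libraries disagreed among themselves. *Mrpl53*, a mitochondrial ribosomal protein, was at 0.636, 0.782 and 0.778 CPM with miR-125b but at 1.18, 24.4 and 24.4 CPM with Trim AG. *Hprt1*, the purine salvage enzyme, was at 1.06 to 1.42 CPM against 9.42, 1.75 and 18.8 CPM, and *Med22*, a Mediator subunit, at 0.742 to 0.782 CPM against 1.04, 7.18 and 4.13 CPM. The libraries carry no strand, so reads of any overlapping genes on opposite strands could not be told apart. Whether such genes overlap these was not examined, and the cause of the disagreement was not tested. The histone gene *Hist1h3b* (log2 difference 2.12) and the serpin *Serpinb6b* (2.08) belong to families of related genes. Whether reads were shared within these families was not tested, so their values are uncertain. *Mlf1* (2.08) and *Pmfbp1* (1.96) complete the up-regulated genes of this rule, both below 3 CPM in every library.

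Among the down-regulated genes, *Gaa*, the lysosomal enzyme that breaks down glycogen, was at 252, 230 and 254 CPM with miR-125b and at 61.0, 73.0 and 56.0 CPM with Trim AG. Its log2 difference was -1.97. *Bbip1*, a subunit of the BBSome complex of cilia, fell from 18.2, 20.5 and 17.5 CPM to 4.12, 5.53 and 4.22 CPM. *Negr1*, a neuronal adhesion molecule, fell from 10.3, 13.1 and 12.5 CPM to 2.18, 2.52 and 1.41 CPM. The groups were clearly separate for each of them. *Abhd10*, a mitochondrial thioesterase, had the largest fall by this rule, 2.86 on the log2 scale, from 2.86, 5.44 and 3.32 CPM to 0.589, 0.455 and 0.557 CPM. *Cox7b2*, *Mgat3*, *Nxph4*, *Sh3tc1* and *Amhr2* had log2 differences between -2.18 and -1.90, at levels under 7 CPM. *Trib3*, which also met this rule, is described with the stress response genes.

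**Figure D1:**
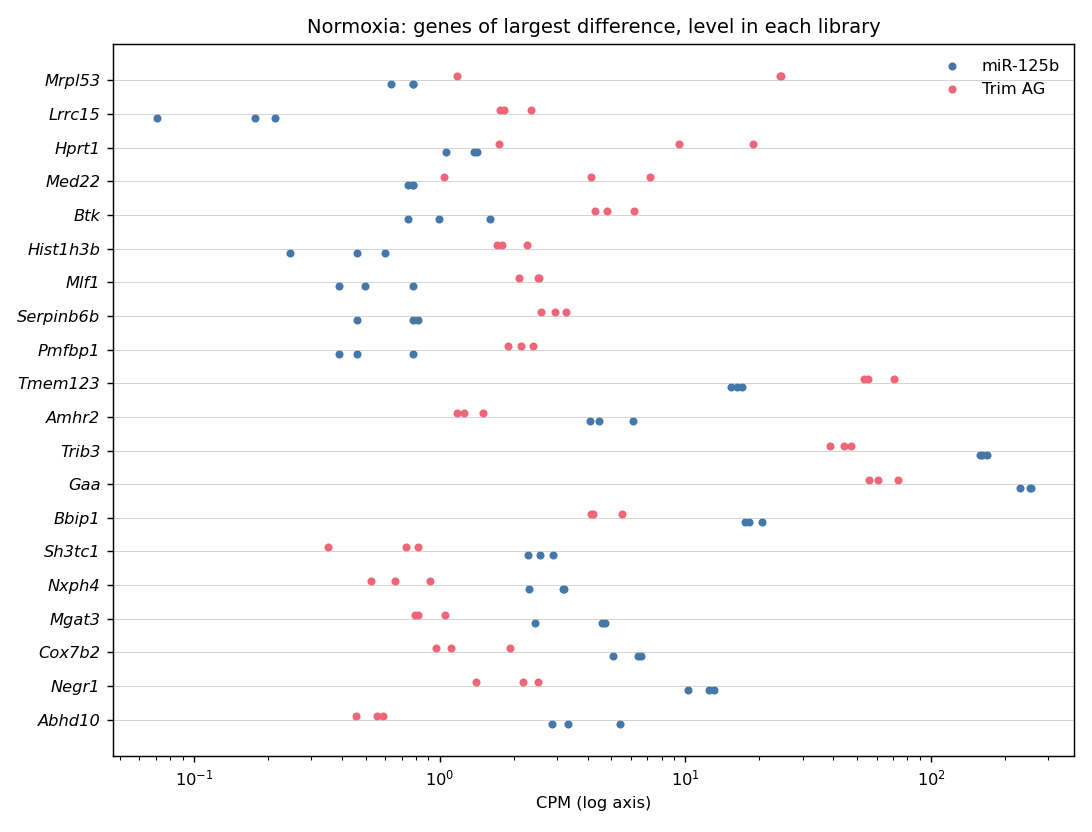
Level in each normoxia library of the 20 named genes with the largest stable difference between Trim AG (red points) and miR-125b (blue points), in CPM on a log axis, 3 points per group and gene. Most pairs of groups are wide apart, but 1 Trim AG library lies close to the miR-125b libraries for *Mrpl53*, *Hprt1* and *Med22*.

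Mitosis and spindle checkpoint genes formed the most uniform group. All 45 tested genes of the list were up-regulated with Trim AG, against 7.58% of all genes tested, and the same 45 were counted without miR-125b replicate 1. The median log2 difference was 1.16, against 0.00 for all genes tested. *Nek2*, a centrosomal kinase, was at 22.2, 22.6 and 20.1 CPM with miR-125b and at 75.2, 66.1 and 76.5 CPM with Trim AG, a log2 difference of 1.73 ± 0.08 (SE, adjusted p = 3.41e-06). *Cep55*, which directs the final cut between daughter cells, was at 23.3, 26.4 and 22.6 CPM against 67.6, 70.6 and 72.1 CPM (1.53 ± 0.07, adjusted p = 3.87e-06). *Cdca3*, a trigger of mitotic entry, was at 30.9, 38.1 and 38.8 CPM against 100.1, 95.0 and 94.6 CPM (1.41 ± 0.09, adjusted p = 1.13e-05). No library of either group came near the other group.

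Genes from each stage of mitosis moved by similar amounts. *Cdk1* and *Ccnb1*, the kinase and cyclin that start mitosis, differed by 1.13 and 1.19 on the log2 scale. *Plk1* and *Aurka*, kinases of the centrosome and spindle, differed by 1.14 and 0.95. *Bub1b* and *Mad2l1*, checkpoint proteins that hold anaphase back, differed by 1.24 and 1.07, and *Cdc20*, which releases it, by 1.12. The smallest difference in the list was that of *Cdc25c*, a phosphatase that activates *Cdk1*, at 0.77. *Mki67*, the proliferation antigen, was at 177, 212 and 220 CPM with miR-125b and at 490, 498 and 526 CPM with Trim AG. Replicate 1 was the lowest miR-125b library for *Mki67*.

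Of the 51 DNA replication genes and E2F targets tested, 39 were up-regulated (76.5%, against 7.58% of all genes tested) and none was down-regulated. The median log2 difference was 0.87. Without miR-125b replicate 1, 34 were called. *Cdc6*, which loads the replicative helicase, was at 11.1, 14.7 and 16.9 CPM with miR-125b and at 40.8, 34.8 and 39.6 CPM with Trim AG. *Mcm5*, a subunit of that helicase, was at 63.0, 91.2 and 89.3 CPM against 228, 196 and 224 CPM. *Fen1*, the flap nuclease of the lagging strand, was at 11.2, 18.2 and 15.2 CPM against 42.2, 38.2 and 38.3 CPM. Their log2 differences were 1.42, 1.40 and 1.40, and in all of them replicate 1 was the lowest miR-125b library. The other helicase subunits *Mcm2*, *Mcm3*, *Mcm4*, *Mcm6* and *Mcm7* differed by 0.83 to 1.31.

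Of the 12 replication genes that were not called, 10 had an adjusted p below 0.05 without the fold of 1.5. The 12 included the cyclin *Ccne1* (0.27) and the transcription factors *E2f1* (0.28) and *E2f3* (0.26). *E2f2*, another factor of that family, was called at 1.02, with 8.55, 11.5 and 14.8 CPM against 24.4, 24.2 and 22.6 CPM. The lists for mitosis and replication therefore differed in uniformity: every mitosis gene passed the fold of 1.5, while *Orc2* (0.04) and *Rfc1* (0.15) hardly moved.

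The promoters of these gene groups were searched for short motifs, and some are shown because the genes moved together. RefSeq promoter sequences (GRCr8, 250 bases before to 50 bases after the annotated start) were searched on both strands. TTTGAA, the core of the cell cycle homology region, was in 26 of the 38 called mitosis genes with a promoter in the table in 18.1% of all 27457 promoters and in 11.8% of those of tested genes. It was in 3 of 31 called replication genes and in none of 16 called stress response genes. CCAAT was in 27 of the 38 mitosis promoters, in 19 of 31 called and 6 of 10 other replication promoters, in 6 of 16 called and 15 of 19 other stress response promoters and in 37.7% of all promoters (37.5% of those of tested genes). TTTGGCGC, an E2F motif, was in 9 of 31 called replication promoters, in none of the 38 mitosis promoters, in 0.521% of all promoters and in 0.953% of those of tested genes. No motif searched contains another. The windows below hold 30 bases each, with the motif in capitals as it stands on the strand of the gene.
*Cep55*, chr1:245245304-245245333, plus strand, position -47 from the start: gcagccgcgggaTTCAAActcccggaagcg
*Mki67*, chr1:199952693-199952722, minus strand, position -117: ttagcgccagaaTTTGAAccgccgttttcg
*Mcm5*, chr19:13488593-13488622, plus strand, position -209: tcagaagtttcGCGCCAAAacgtcccgcct
*Cdt1*, chr19:67529269-67529298, plus strand, position 32: gggaagtagcttTTTGGCGCcatggcgcag
*Cep55* and *Mcm5* carry the motif on the opposite strand, so the capitals show its reverse complement. A match describes the letters and is no evidence of binding.

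**Figure D2:**
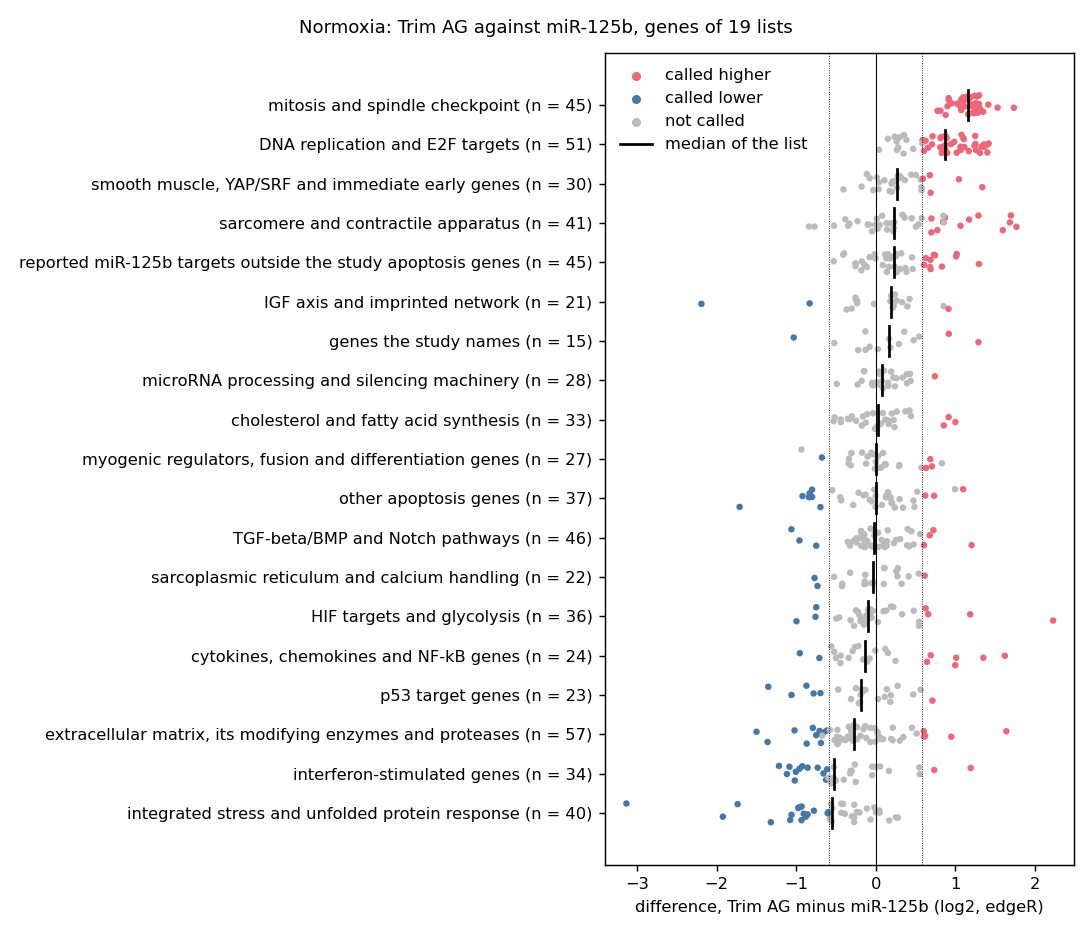
Difference between Trim AG and miR-125b in normoxia (log2, x axis) for each tested gene of 19 gene lists, ordered by list median (black bar). Red and blue points are genes called up- and down-regulated, grey points were not called, and dotted lines mark the fold of 1.5. Mitosis and replication genes lie to the right of 0 and the stress response and interferon lists mostly to the left.

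Part of the list for the integrated stress response and unfolded protein response was lower with Trim AG. The integrated stress response halts general translation under stress and, through the factor ATF4, turns on amino acid synthesis and transport genes. Of 40 genes tested, 16 were down-regulated, against 6.36% of all genes tested, and none was up-regulated, with a median log2 difference of -0.55. Without miR-125b replicate 1, 19 were called. *Trib3*, a pseudokinase induced by ATF4, fell from 158, 162 and 169 CPM with miR-125b to 47.1, 38.8 and 44.0 CPM with Trim AG, a log2 difference of -1.92 ± 0.08 (SE, adjusted p = 2.27e-06). *Ddit3*, which encodes the stress factor CHOP, fell from 80.8, 79.8 and 78.1 CPM to 21.7, 25.7 and 24.8 CPM (-1.74 ± 0.07, adjusted p = 2.27e-06).

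The genes that moved included enzymes and transporters of amino acids. *Phgdh* and *Psph*, enzymes of serine synthesis, differed by -1.32 and -0.98, with *Phgdh* at 354, 347 and 337 CPM against 140, 136 and 143 CPM. *Asns*, asparagine synthetase, was at 230, 223 and 207 CPM against 119, 115 and 134 CPM. The transporter subunits *Slc7a5*, *Slc3a2* and *Slc7a11* differed by -0.88, -0.93 and -0.96, and the glutathione-degrading enzyme *Chac1* by -0.93. *Atf4* itself was at 701, 728 and 674 CPM against 483, 465 and 487 CPM. Its log2 difference of -0.56 had an adjusted p of 4.54e-05 but did not reach the fold of 1.5. By adjusted p alone, 19.6% of all genes tested were lower.

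The other 24 genes of the list were not called. *Hspa5*, the main chaperone of that compartment, differed by -0.11, *Hsp90b1* by 0.00 and *Calr* by -0.21, and none was called. *Xbp1* and *Ern1*, which act in another arm of the unfolded protein response, differed by -0.27 and -0.55 without a call. *Nupr1*, a small stress-induced nuclear protein, had the largest fitted fall of the list, 3.13 on the log2 scale, but this value rested on 1 library: it was at 4.56, 5.12 and 97.6 CPM with miR-125b and at 2.63, 6.69 and 3.04 CPM with Trim AG. The groups overlapped, and without miR-125b replicate 3 the log2 difference was -0.24.

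TGATGNAA, the core of a composite site for CHOP or ATF4 with a C/EBP factor, was in 4 of the 16 called stress response promoters (*Trib3*, *Chac1*, *Nupr1* and *Herpud1*), in 2 of 19 that were not called, in 3.82% of all promoters and in 1.89% of those of tested genes. The motif stands on the opposite strand in both windows below.
*Trib3*, chr3:161275536-161275565, minus strand, position -21: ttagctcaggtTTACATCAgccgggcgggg
*Chac1*, chr3:126795953-126795982, plus strand, position -167: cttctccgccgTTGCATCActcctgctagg

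Interferon-stimulated genes, which are induced by antiviral signalling, were more often lower than higher among the calls. Of 34 tested, 12 were down-regulated (35.3%, against 6.36% of all genes tested) and 2 up-regulated (5.88%, against 7.58%). The median log2 difference was -0.52. Without miR-125b replicate 1 the counts were 13 and 1. *Isg20*, an RNA exonuclease, fell from 17.2, 18.9 and 18.9 CPM to 9.01, 7.74 and 9.40 CPM. *Gbp2*, a guanylate-binding protein, fell from 41.2, 36.3 and 37.1 CPM to 17.8, 22.4 and 20.7 CPM, and *Tap1*, the peptide transporter of antigen presentation, from 36.5, 37.7 and 36.5 CPM to 21.8, 19.01 and 20.8 CPM. The groups were separate in each of these genes. *Psmb8* and *Tap2*, also in the list, were called at log2 differences of -1.12 and -1.02, but each lost the call in most fits with a library left out, and a second identifier of *Tap2* differed by -0.27. The up-regulated members were *Mx2* (0.73), which lost the call without miR-125b replicate 3 and without Trim AG replicate 1, and *Oasl2* (1.19). Of these, *Mx2* but not *Oasl2* was called without miR-125b replicate 1. *Isg15* (-0.30) was not called.

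The core of the interferon-stimulated response element, GAAA followed by 2 bases of any kind and GAAA again, was in 9 of the 11 down-regulated members with a promoter in the table, in 7 of 12 other members, in 3.77% of all promoters and in 2.78% of those of tested genes. It stands on the opposite strand in *Gbp2*.
*Isg20*, chr1:142239957-142239986, plus strand, position -92: taatgaaccaGAAACTGAAActaaaacggc
*Gbp2*, chr2:234005686-234005715, plus strand, position -31: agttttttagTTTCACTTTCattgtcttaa

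The study names genes of apoptosis, the troponin gene *Tnnt2* and the reference gene *Actb*. Of its 15 tested genes, *Tnnt2* and *Klf13* were up-regulated (13.3%, against 7.58% of all genes tested). *Actb* was down-regulated (6.67%, close to the 6.36% of all genes tested) and 12 were not called. The counts were 3 and 2 without miR-125b replicate 1. *Tnnt2*, cardiac troponin T, was at 13.3, 9.42 and 13.1 CPM with miR-125b and at 22.2, 40.4 and 25.8 CPM with Trim AG. *Klf13*, a zinc finger factor of heart development, was at 4.42, 4.23 and 3.85 CPM against 7.48, 8.33 and 7.99 CPM. *Actb*, cytoplasmic beta-actin and a common reference gene, was at 5584, 5466 and 4992 CPM against 2593, 2843 and 2477 CPM, a log2 difference of -1.03 ± 0.06 (SE, adjusted p = 1.04e-05).

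Among the apoptosis genes proper, *Bak1*, which permeabilises the outer mitochondrial membrane, was at 43.3, 33.3 and 33.4 CPM with miR-125b and at 52.2, 51.0 and 50.9 CPM with Trim AG. Its log2 difference of 0.47 was not called over all libraries but was 0.61 and called without miR-125b replicate 1. *Bcl2l11*, which encodes BIM, was at 28.0, 32.4 and 32.1 CPM against 23.0, 20.6 and 21.4 CPM, a difference of -0.52 in the other direction, and -0.59 and called without that library. *Casp2* differed by 0.54 with an adjusted p of 0.000718. *Bmf* (0.29), *Hif1an* (0.18), *Traf6* (0.17), *Tnfrsf1b* (0.36), *Tp53inp1* (0.02), *Tp53inp2* (-0.08), *Dram2* (-0.13) and *Bax* (-0.13) had adjusted p-values from 0.108 to 0.913, which does not show that they were alike.

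Outside the study's own genes, 37 other apoptosis genes were tested, of which 3 were up-regulated (8.11%, close to the 7.58% of all genes tested) and 7 down-regulated (18.9%, against 6.36%), and 2 and 7 without miR-125b replicate 1. *Casp4*, an inflammatory caspase, fell from 83.7, 78.7 and 78.2 CPM to 23.9, 24.4 and 25.7 CPM, a log2 difference of -1.71 ± 0.06 (SE, adjusted p = 1.34e-06). *Bcl2l1*, which encodes the survival protein BCL-XL, fell from 99.8, 99.7 and 101 CPM to 52.7, 52.5 and 54.7 CPM. *Tradd*, an adaptor of the TNF receptor, fell from 39.8, 45.9 and 38.05 CPM to 23.7, 23.3 and 22.7 CPM. Members that fell thus included both survival and death genes. *Bcl2*, the survival gene of that name, was called at 0.73 but lost the call in some fits with a library left out. *Birc5*, which encodes survivin and also belongs to the mitosis list, was at 36.3, 45.05 and 39.8 CPM against 95.2, 81.8 and 84.3 CPM.

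Of 23 p53 target genes, 5 were down-regulated (21.7%, against 6.36% of all genes tested). *Btg2* was up-regulated (0.71), which is 4.35% of the list against 7.58% of all genes tested. It was not called without miR-125b replicate 1. *Gadd45a*, a growth arrest gene, fell from 87.5, 91.4 and 96.4 CPM to 34.4, 38.2 and 36.2 CPM. *Sesn2*, a sestrin that is also in the stress response list, fell from 215, 226 and 228 CPM to 113, 99.9 and 111 CPM. *Cdkn1a*, the cell cycle inhibitor p21, fell from 417, 382 and 376 CPM to 238, 214 and 236 CPM, and *Mdm2* and *Fas* differed by -0.87 and -0.70.

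Of 41 sarcomere genes tested, 12 were up-regulated and none was down-regulated (7.58% and 6.36% of all genes), with a median log2 difference of 0.23 and 13 calls without miR-125b replicate 1. *Acta1*, skeletal alpha-actin, was at 28.8, 23.8 and 22.6 CPM with miR-125b and at 81.5, 90.5 and 86.2 CPM with Trim AG, a log2 difference of 1.77 ± 0.09 (SE, adjusted p = 6.3e-06). *Tnnc2*, fast troponin C, was at 44.1, 28.9 and 32.7 CPM against 96.3, 118 and 108 CPM (1.59 ± 0.14). *Csrp3*, a muscle LIM protein, was at 0.495, 0.747 and 0.212 CPM against 1.73, 1.58 and 1.47 CPM. Of the other called genes, *Myh1*, *Myh3*, *Tnnt1* and *Tnni1*, which encode myosins and troponins of skeletal muscle, differed by 0.85 to 1.17.

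Of 30 smooth muscle, YAP/SRF and immediate early genes, 5 were up-regulated (16.7%, against 7.58% of all genes tested) and none was down-regulated (against 6.36%). *Myh11*, smooth muscle myosin, was at 12.2, 11.2 and 10.3 CPM against 24.8, 32.7 and 28.4 CPM. *Cnn1*, calponin, was at 398, 338 and 332 CPM against 721, 754 and 745 CPM, and *Vcl*, vinculin, at 545, 558 and 576 CPM against 895, 896 and 935 CPM. *Srf*, the transcription factor that drives many of these genes and is in the myogenic list, differed by 0.63. Of 27 myogenic regulators tested, 3 were up-regulated (*Srf*, *Itga7* and *Chrnb1*, 11.1%, against 7.58%), or 4 without miR-125b replicate 1. *Id2*, an inhibitor of helix-loop-helix factors, was down-regulated (3.7% of the list, against 6.36%). *Myod1* (0.05) and *Myog* (0.12) were not called.

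Actins differed in direction. Per unit of length, as FPKM deposited by the authors, *Acta2*, smooth muscle actin, was at 5646 ± 62.6 with miR-125b and at 7338 ± 191 with Trim AG (mean ± SD, n = 3). *Actb* was at 3814 ± 230 and 1882 ± 132 FPKM, and *Acta1* at 17.4 ± 2.32 and 59.6 ± 2.95 FPKM. *Acta2* thus exceeded *Actb* in every library, and *Acta1* stayed a small part of the actin messengers in both groups. In the count fit, *Acta2* differed by 0.37 (adjusted p = 5.8e-05), below the fold of 1.5.

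Of 57 extracellular matrix genes tested, 10 were down-regulated (17.5%, against 6.36% of all genes tested) and 5 up-regulated (8.77%, close to the 7.58% of all genes tested), and the median log2 difference was -0.28. The counts were 11 and 4 without miR-125b replicate 1. *Bgn*, the proteoglycan biglycan, fell from 2016, 2407 and 2251 CPM to 676, 1010 and 693 CPM, a log2 difference of -1.50 ± 0.14 (SE, adjusted p = 7.1e-05). *Mmp14*, a membrane-bound matrix protease, fell from 487, 506 and 485 CPM to 185, 213 and 182 CPM. *Lox*, which cross-links collagen, fell from 749, 820 and 787 CPM to 379, 402 and 389 CPM. Every Trim AG library was below every miR-125b library in these genes.

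The fibrillar collagens *Col1a1*, *Col1a2* and *Col3a1* differed by -0.66, -0.87 and -0.71, and *P4ha1*, which hydroxylates collagen, by -0.75. These collagens hold most of the fibroblast marker sum given above. Against them, *Tnc*, the glycoprotein tenascin-C, rose from 34.1, 27.4 and 27.3 CPM to 83.4, 106 and 90.0 CPM (1.64 ± 0.11), and *Loxl2*, a relative of *Lox*, from 143, 110 and 119 CPM to 218, 272 and 233 CPM. *Postn*, periostin, was called at 0.61, and *Fbln1* at 0.62 with the call lost without miR-125b replicate 1. *Fn1*, fibronectin (0.04), and *Col4a1*, of the basement membrane (-0.13), were not called.

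Genes reported elsewhere as miR-125b targets were tested as a further list of 45, taken from general knowledge. Of these, 11 were up-regulated with Trim AG (24.4%, against 7.58% of all genes tested) and none was down-regulated (against 6.36%). The median log2 difference was 0.23, and 10 were called without miR-125b replicate 1. *Tnfaip3*, an inhibitor of NF-kB signalling, was at 3.43, 3.70 and 3.43 CPM with miR-125b and at 8.21, 5.95 and 7.27 CPM with Trim AG. *Ets1*, a transcription factor, was at 16.5, 18.4 and 17.2 CPM against 28.9, 30.01 and 29.2 CPM. *Jarid2*, a subunit of Polycomb complex PRC2, was at 12.1, 10.6 and 10.8 CPM against 18.2, 21.3 and 20.5 CPM. *Bap1*, a deubiquitinase, differed by 0.73. *Ccna2* (1.29), *E2f2* (1.02) and *Cdc25a* (0.68) of this list are cell cycle genes. Other members were not called, among them *Stat3* (-0.53), *Smo* (-0.26) and *Map2k7* (0.46).

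Few genes of the miRNA machinery were called. Of 28 processing and silencing genes tested, 1 was up-regulated (3.57%, against 7.58% of all genes tested) and none was down-regulated (against 6.36%). A further 9 of the 28 passed the adjusted p without the fold of 1.5, as did 3650 of all 14864 genes tested. The list was thus not shown to be more stable than other genes. The called gene was *Pan2*, a subunit of a deadenylase, at 20.6, 21.5 and 22.6 CPM against 37.1, 37.1 and 34.8 CPM. *Ago2*, the slicing Argonaute, was at 37.9, 34.3 and 36.3 CPM against 47.7, 47.9 and 47.7 CPM, a log2 difference of 0.39 (adjusted p = 0.000624) that did not reach the fold of 1.5. *Dicer1* (-0.15) and *Drosha* (0.24) were not called.

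The remaining lists are given by their counts, beside 7.58% up-regulated and 6.36% down-regulated among all genes tested. The list shares, up and down, were 25% and 8.33% for cytokine genes and 11.1% and 8.33% for HIF targets and glycolysis. They were 9.09% and 0% for sterol genes and 8.7% and 6.52% for TGF-beta/BMP and Notch genes. For the IGF axis they were 4.76% and 9.52%, and for calcium handling 4.55% and 9.09%. Most of these shares were near those of all genes tested. Of 24 cytokine and NF-kB genes, 6 were up-regulated and 2 down-regulated, and 5 and 3 without miR-125b replicate 1. *Il1rl1*, the receptor of interleukin-33, was at 20.3, 20.9 and 20.4 CPM against 54.0, 55.2 and 49.4 CPM, and *Ptgs2*, the inducible cyclooxygenase, at 53.3, 60.1 and 72.7 CPM against 122, 130 and 124 CPM, whereas the adhesion molecule *Icam1* fell from 109, 99.7 and 99.3 CPM to 62.1, 65.5 and 62.6 CPM. Of 36 HIF targets and glycolysis genes, 4 were up-regulated and 3 down-regulated (4 and 2 without miR-125b replicate 1), the largest fall by the naming rule being that of *Hmox1*, heme oxygenase, from 206, 203 and 196 CPM to 111, 88.7 and 106 CPM. Of 33 sterol and fatty acid genes, 3 were up-regulated and none was down-regulated, with *Stard4*, a cholesterol carrier, at 1.00. Of 46 TGF-beta/BMP and Notch genes, 4 were up-regulated and 3 down-regulated (3 and 3 without miR-125b replicate 1), with *Tgfbr3*, a co-receptor, at -0.96. Of 21 genes of the IGF axis and imprinted network, 1 was up-regulated (*Gatm*, 0.91) and 2 down-regulated, among them *Igf1* (-0.83). Of 22 calcium handling genes, *Casq1* was up-regulated (0.61), and *Itpr3* (-0.77) and *Cacng1* (-0.73) were down-regulated, with the call of *Cacng1* lost in some fits with a library left out.

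Set beside the other normoxia groups, the mitosis, replication and stress response sums of Trim AG lay near those of the shorter Trim AGU, but not all lists did so. The summed level of the 45 mitosis genes was 2533, 3196 and 3149 CPM with miR-125b, 3104, 2425 and 2464 CPM with Plus A, 4015, 4001 and 3897 CPM with Trim A, 6918, 6566 and 6855 CPM with Trim AG and 6582, 6621 and 6314 CPM with Trim AGU. Trim A, which lacks 1 base, lay between. The replication sum gave the same order for the means, from 2191 CPM with Plus A and 2374 CPM with miR-125b over 2987 CPM with Trim A to 4369 CPM with Trim AGU and 4435 CPM with Trim AG. The stress response sum was 12552 ± 47.3 CPM with miR-125b, 11895 ± 248 CPM with Trim A, 9876 ± 80.5 CPM with Trim AG and 10232 ± 104 CPM with Trim AGU. The interferon sum was 1227 CPM with miR-125b, 1064 CPM with Trim AG and 1183 CPM with Trim AGU, nearer to miR-125b. The sum of the study's genes was also nearer to miR-125b, at 5937, 3234 and 5135 CPM in the same order. Most of that sum was the reference gene *Actb*, at a mean of 5347 CPM with miR-125b and 2638 CPM with Trim AG. It therefore says little about the apoptosis genes. The matrix sum of 65584 CPM with Trim AGU lay about midway between 74974 CPM with miR-125b and 55681 CPM with Trim AG. Differences of Plus A and Trim A from the other groups were not tested here. Plus A replicate 1 is the library whose *Cav1* level went against its group.

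**Figure D3:**
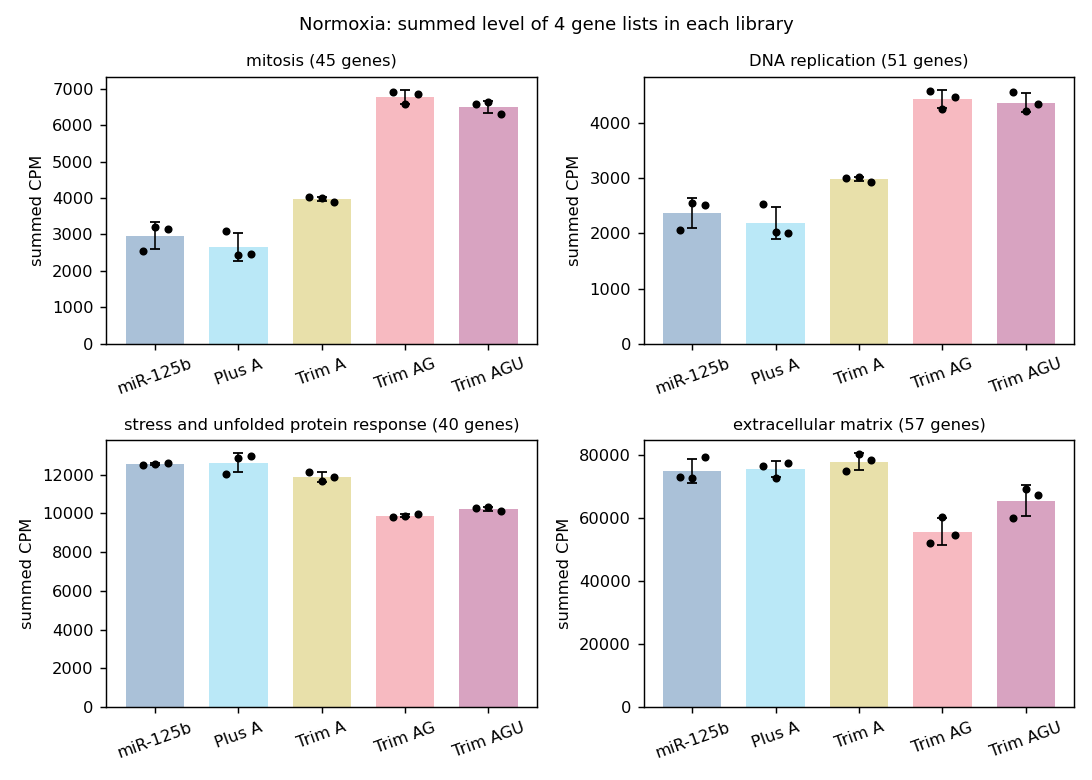
Summed CPM of 4 gene lists in the 5 normoxia groups with counts per library (bars are means, error bars SD, points the 3 libraries). Mitosis and replication sums are high with Trim AG and Trim AGU, and the stress response sum is lowest with Trim AG.

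The direct test of Trim AGU against Trim AG called 232 of 14768 genes up-regulated (1.57%) and 187 down-regulated (1.27%), in all 2.84% of the genes tested. Without Trim AG replicate 3 the counts were 97 and 48, and without Trim AG replicate 1 they were 115 and 81. None of the 45 mitosis genes and 1 of the 51 replication genes tested was called, and *Nek2* differed by -0.17 (adjusted p = 0.446). That a gene was not called does not show that the isomiRs acted alike on it. Of the 2073 genes called between Trim AG and miR-125b, 234 (11.3%) also differed between Trim AGU and Trim AG, at the same thresholds. These comparisons share the Trim AG libraries.

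Several muscle, actin and matrix genes did differ between the trimmed isomiRs. *Acta1* was at 81.5, 90.5 and 86.2 CPM with Trim AG and at 37.3, 42.4 and 37.4 CPM with Trim AGU, a log2 difference of -1.14 (adjusted p = 0.000513). *Tnnc2* was at 54.1, 42.0 and 51.8 CPM with Trim AGU (-1.12, adjusted p = 0.00152). *Actb* was at 4220, 5321 and 4017 CPM with Trim AGU (0.78, adjusted p = 0.00547). *Bgn* was at 1933, 2506 and 1940 CPM with Trim AGU (1.42, adjusted p = 0.00307), overlapping its miR-125b values. *Lox* was at 627, 837 and 654 CPM (0.86, adjusted p = 0.00379). For these genes Trim AG lay at the extreme of the 5 normoxia groups, and Trim AGU lay closer to miR-125b.

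**Figure D4:**
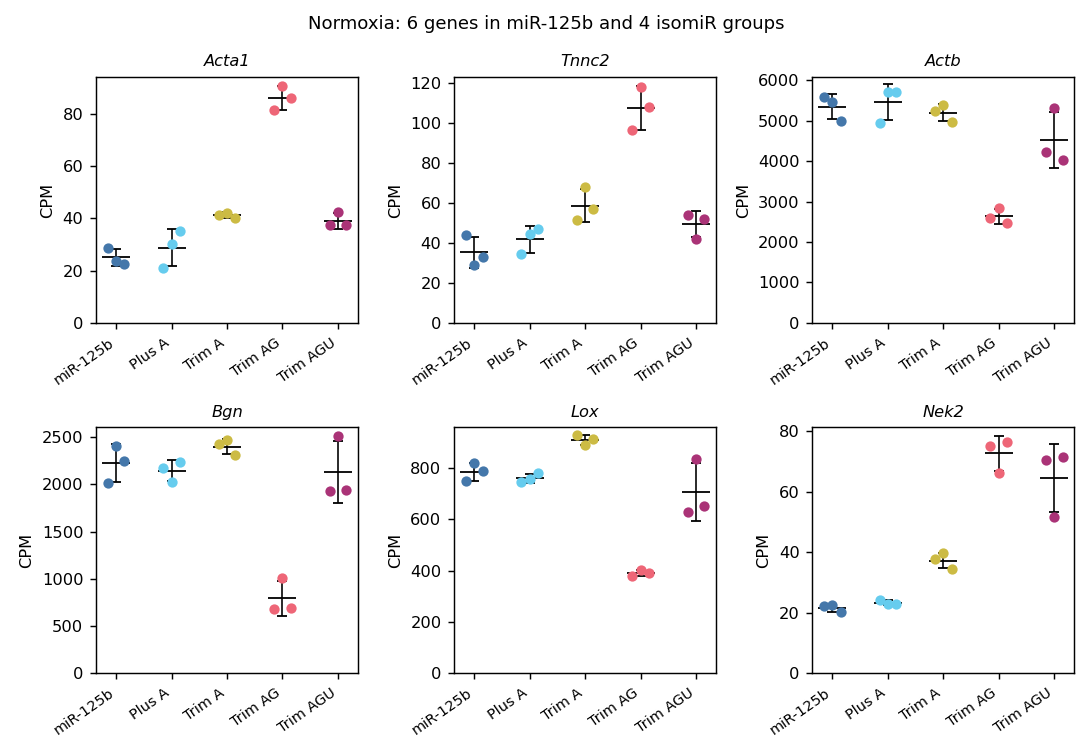
Level in CPM of 6 genes in miR-125b and 4 isomiR groups in normoxia (points are the 3 libraries, lines and bars mean and SD). *Acta1* and *Tnnc2* peak, and *Actb*, *Bgn* and *Lox* are lowest, with Trim AG, while *Nek2* is high with both Trim AG and Trim AGU.

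The mimic control in normoxia was available only as the authors' mean of normalised counts, beside that of Plus A, with no spread. The authors' mean for *Trib3* was 678 in mimic control and 4808 in Plus A, and for *Ddit3* 632 and 2148. For *Mki67* it was 8508 and 4924, and for *Cep55* 1561 and 608. For *Bgn* the means were 64938 and 61933. These values are on another scale than CPM and no test was made with them.

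The difference between Trim AG and miR-125b was also compared between hypoxia and normoxia in 1 fit of 12 libraries, in which the hypoxia Trim AG libraries were deeper (39940087 to 42672584 counts) than the hypoxia miR-125b libraries (29091231 to 30994367). Of 15603 genes, the difference was higher in hypoxia for 669 (4.29%) and lower for 1088 (6.97%). Leaving out hypoxia Trim AG replicate 1 raised these counts to 1032 and 1513. Among the 2073 genes called in normoxia, 491 (23.7%) were called in this test as well, and both tests use the same normoxia libraries. Oxygen, serum and glucose changed together between the conditions, so their parts cannot be told apart.

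Among the 40 stress response genes, the pattern differed between hypoxia and normoxia. For 22 of the 40 tested the difference was higher in hypoxia, and for none was it lower, against 4.29% and 6.97% of all genes tested. *Trib3* was at 467, 467 and 457 CPM with miR-125b and at 563, 532 and 537 CPM with Trim AG in hypoxia, against its fall with Trim AG in normoxia, and the 2 differences were 2.14 apart on the log2 scale (adjusted p = 1.27e-07). *Ddit3* was at 223, 205 and 199 CPM against 207, 285 and 249 CPM in hypoxia (1.96 apart, adjusted p = 8.71e-06), where the groups overlapped. *Asns* was at 255, 256 and 253 CPM against 380, 484 and 428 CPM in hypoxia (1.60 apart, adjusted p = 1.16e-05). *Casp4* and *Gadd45a*, both down-regulated in normoxia, were 2.02 and 1.36 apart. *Phgdh* stayed lower with Trim AG at both oxygen levels, at 310, 296 and 308 CPM against 197, 230 and 210 CPM in hypoxia.

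Mitosis genes kept their direction. The summed level of the 45 genes was 814, 834 and 825 CPM with miR-125b and 2295, 2767 and 2318 CPM with Trim AG in hypoxia, so that both groups were lower than in normoxia. For 11 of the genes the difference was larger in hypoxia, and for none was it smaller at the thresholds used. Among all genes tested, 4.29% had a higher and 6.97% a lower difference. For 25 of 57 matrix genes the difference was lower in hypoxia and for 1 it was higher, against 6.97% and 4.29% of all genes. Falls seen in normoxia were larger in hypoxia for *Lox* (log2 difference -1.02 and then -2.32) and *Mmp14* (-1.36 and -2.15). Rises seen in normoxia were smaller for *Tnc* (1.64 and 0.42) and *Loxl2* (0.95 and 0.14), and *Fbln1* went from 0.62 to -0.40. *Bgn* was at 2570, 2655 and 2675 CPM against 299, 142 and 213 CPM in hypoxia (-2.11 apart, adjusted p = 0.000481). For 14 of the 41 sarcomere genes the difference was lower in hypoxia, against 6.97% of all genes. For 2 of the 41 it was higher, which is near the 4.29% of all genes. *Acta1* was among the latter, at 18.2 ± 1.18 CPM against 157 ± 17.5 CPM (mean ± SD, n = 3).

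**Figure D5:**
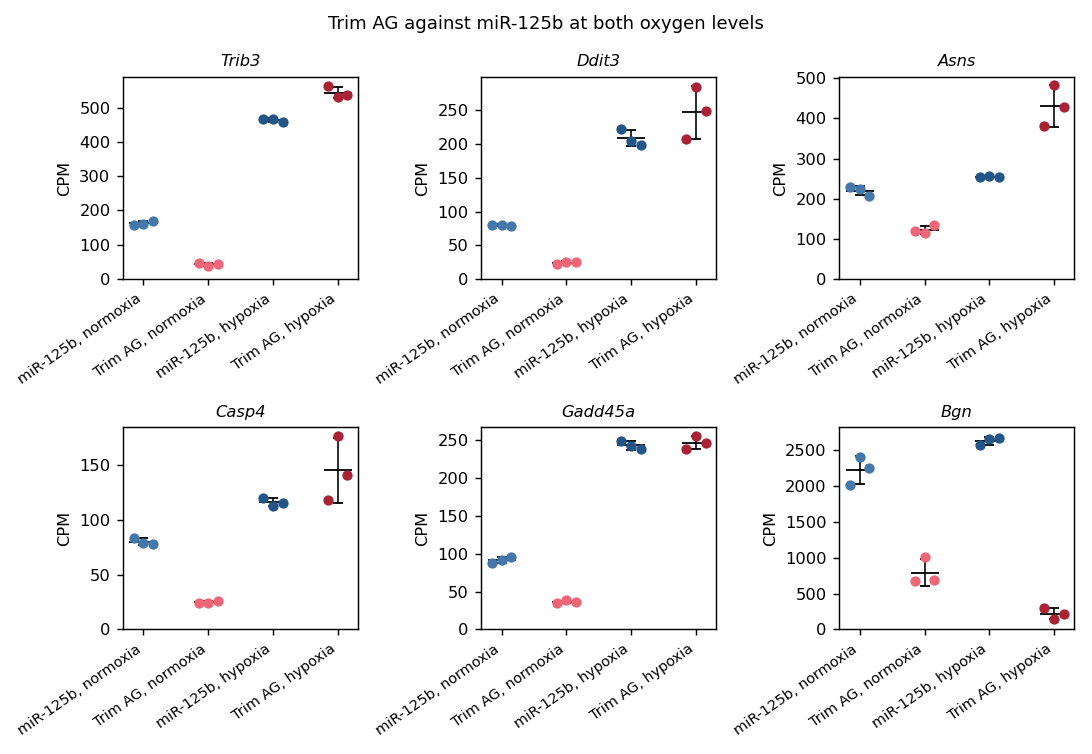
Level in CPM of 6 genes with miR-125b (blue) and Trim AG (red) in normoxia (light) and hypoxia (dark), 3 libraries per group with mean and SD. *Trib3*, *Ddit3*, *Asns*, *Casp4* and *Gadd45a* are lower with Trim AG in normoxia but not in hypoxia, while *Bgn* is lower at both oxygen levels.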

How the data were processed

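The members and gene lists were chosen with earlier results of these data known. H9C2 RNA was sequenced as non-stranded poly-A libraries, and the submitters' processing notes name HISAT2 and StringTie. The counting tool and genome build are not given in the sources used here. The authors deposited raw counts per gene and FPKM (scaled to gene length and library size) for pairs of groups, with their own fold changes and p-values, which were not used, and a table of normalised signal, the authors' group means of mimic control and Plus A. Of 12 tables, 5 were read for counts, giving 24 libraries with 0 conflicting values.

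Counts were tested with edgeR 4.0.16 in R 4.3.3 (TMM, filterByExpr, quasi-likelihood F test, Benjamini-Hochberg over all genes tested). A call needed an adjusted p below 0.05 and a fold of at least 1.5. The fit was tested on simulated data. Printed CPM use TMM factors over the 24 libraries (0.970 to 1.00 in the 6 libraries here). Promoters were matched by symbol, 1 per symbol. Alternatives were DESeq2 1.42.0, RLE scaling, no filter, each library left out, a replicate block, other fold thresholds and all normoxia libraries in 1 fit. Without miR-125b replicate 1, list counts were added after seeing the data. No 2 libraries of a group were the same library by a chi-square test of counts (6.32 to 18.3 per degree of freedom).

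Genes were named by rule: per direction the 10 called genes of largest difference with a gene name, a mean of at least 1 CPM, no overlap and an adjusted p below 0.05 in each of 6 fits with a library left out; up to 3 called genes per list and direction; and the genes the study names, with *Tnnt2* and *Cav1* as checks. Other genes given with values were chosen after their values were seen, as examples of their list. Some genes of the lists are not reported here, though they are counted. Intervals and tests cover the spread between the 6 libraries, and low levels carry more counting error.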

Additional observations from a re-analysis of the deposited data

Results flagged for a closer look

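Results were set apart where the difference between Trim AG and miR-125b in hypoxia was tested against that in normoxia (an interaction term in edgeR's quasi-likelihood fit of 12 libraries) and passed an adjusted p of 0.05 and a fold of 1.5. Over all genes, 669 had a higher difference in hypoxia and 1088 a lower one. Values below are the difference in hypoxia minus that in normoxia, on the log2 scale, for 40 of the named genes.

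Among stress response, apoptosis and p53 genes the value was 2.14 for *Trib3*, 1.96 for *Ddit3*, 5.51 for *Nupr1*, 0.98 for *Sesn2*, 2.02 for *Casp4*, 1.36 for *Gadd45a* and 0.65 for *Tp53inp1*, but -1.66 for *Bmf*. Among mitosis and replication genes it was 0.66 for *Nek2*, 0.64 for *Cep55* and 0.59 for *Cdca3*, but -1.24 for *E2f2*. Among muscle and smooth muscle genes it was 1.33 for *Acta1* and 0.71 for *Cnn1*, but -2.70 for *Tnnt2*, -0.88 for *Myh11*, -0.97 for *Casq1* and -0.94 for *Itga7*, and 0.69 for *Id2*. Among matrix genes it was -2.11 for *Bgn*, -1.29 for *Lox*, -0.80 for *Loxl2*, -0.79 for *Mmp14*, -1.22 for *Tnc* and -1.02 for *Fbln1*. Among HIF targets and glycolysis genes it was -1.44 for *Ankrd37*, -2.43 for *Ndrg1* and -1.44 for *Pfkl*, but 1.17 for *Hmox1*.

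Among the remaining named genes it was 0.73 for *Isg20* and -3.17 for *Mx2*, -0.95 for *Tnfaip3*, 0.68 for *Nog*, -0.99 for *Klf13*, 5.42 for *Abhd10*, 1.20 for *Amhr2*, -0.87 for *Gaa*, -3.83 for *Lrrc15*, -3.08 for *Med22* and -5.41 for *Mrpl53*. The value of *Nupr1* rests on miR-125b replicate 3 in normoxia, and those of *Mrpl53* and *Med22* on Trim AG libraries that differed among themselves.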

How the results depend on the processing

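DESeq2, RLE scaling and no filter on low counts kept the counts of called genes within 1.5 times in the 3 comparisons, as did all normoxia libraries in 1 fit for the comparisons within normoxia. At a 2-fold threshold the counts fell to 427 higher and 298 lower for Trim AG against miR-125b, 44 and 70 for Trim AGU against Trim AG, and 164 and 474 for the oxygen test. With no fold threshold they were 2817 and 2906, 751 and 411, and 1772 and 1766. With a library left out they ranged from 1050 to 1171 and from 848 to 933, from 97 to 253 and from 48 to 209, and from 489 to 1032 and from 837 to 1513. For Trim AGU against Trim AG, the counts were 115 and 81 without Trim AG replicate 1, 200 and 103 without replicate 2, 97 and 48 without replicate 3, and 171 and 83 without Trim AGU replicate 3. For the oxygen test they were 1032 and 1513 without hypoxia Trim AG replicate 1. The replicate block gave 1102 and 913 for Trim AG against miR-125b, and same-numbered libraries did not deviate together (correlations -0.03, -0.06 and -0.0017). This check saw no pairing by number but cannot exclude shared cultures or batches. With a library left out, the difference of *Tp53inp1* ranged from -0.11 (without miR-125b replicate 2) to 0.19 (without miR-125b replicate 3) and was -0.04 without Trim AG replicate 2, and that of *Tp53inp2* ranged from -0.18 (without Trim AG replicate 2) to 0.021 (without miR-125b replicate 1). Of 88 named genes called, 14 lost the call when a library was left out, 6 did under another alternative, and none reversed. The causes were not tested.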
